A study of Mus musculus with 18 samples.

Results

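The step from day 5 to day 8 of a conversion of mouse stem cells from primed to naive pluripotency was examined by comparing the 3 libraries labelled D8 with the 3 labelled D5, 6 of the 18 libraries of the study. The groups were taken from the labels alone. The cells began as EpiSC, the primed stem cells of day 0, passed through D3, D5 and D8, which are all labelled as transient, and ended as rES, labelled as naive stem cells, with mESC (the ESC group) as a reference. The labels name no strain, growth medium or treatment for any group, and nothing in them tells whether the replicates of a group came from different cultures. The p-values given here thus measure sample-to-sample spread, which may be technical. RNA came from whole cultures. Fewer cells of a type and less RNA per cell cannot be told apart in such bulk samples.

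Primed and naive pluripotency are the states of the epiblast after and before implantation. Both rest on Pou5f1 (Oct4) and Sox2, while the naive state adds a circuit of Nanog, Esrrb, Tfcp2l1, Klf and Tbx3 factors, supported by LIF-STAT3 signalling. Naive cells also have a hypomethylated genome, and germline genes that DNA methylation and the PRC1.6 complex keep silent elsewhere are more easily expressed in them. Trophoblast is the outer, placental lineage of the embryo, which cells with low Pou5f1 can enter.

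The D5 libraries held 65.17, 63.15 and 61.22 M deposited counts and the D8 libraries 65, 101.6 and 63.49 M (M, a count of 1e6). Genes with any count numbered 16633 ± 119 at D5 and 18015 ± 311 at D8 (SD, n = 3). The D8 libraries were also the most dispersed of the 6 groups. Their median within-group SD was 0.216 log2 units, against 0.134 at D5 and 0.105 to 0.173 in the other groups. Levels below are CPM, the counts of each library per M counts, scaled by TMM and listed from replicate 1 to 3. Log2 differences are D8 minus D5 with an approximate standard error, and a gene was called when its adjusted p, from edgeR's quasi-likelihood test with Benjamini-Hochberg adjustment over all genes tested, was under 0.05. CPM is not corrected for gene length, so levels are compared between libraries and not between genes.

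Of 17545 genes tested, 8265 were called (47.1%). Higher calls at D8 numbered 4397 (25.1%) and lower calls 3868 (22%). These shares are the comparison for every count of list members called below. Separate groups were common as well. All 3 D8 libraries lay above all 3 D5 libraries for 5189 of the 17545 genes and below them for 4497. The 2 directions were unequal in size of change: 2551 genes were called at least 2-fold higher (14.5%) and 616 at least 2-fold lower (3.51%). Genes that came up from almost nothing made up much of the first set, since 1516 of the 2551 averaged under 1 CPM at D5, while 171 of the 616 averaged under 1 CPM at D8. Among genes with at least 5 CPM in either group the 2-fold calls were 1064 higher and 406 lower. A total of 405 genes had no count in any D5 library and counts in all 3 D8 libraries, and 14 showed the reverse.

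**Figure D1:**
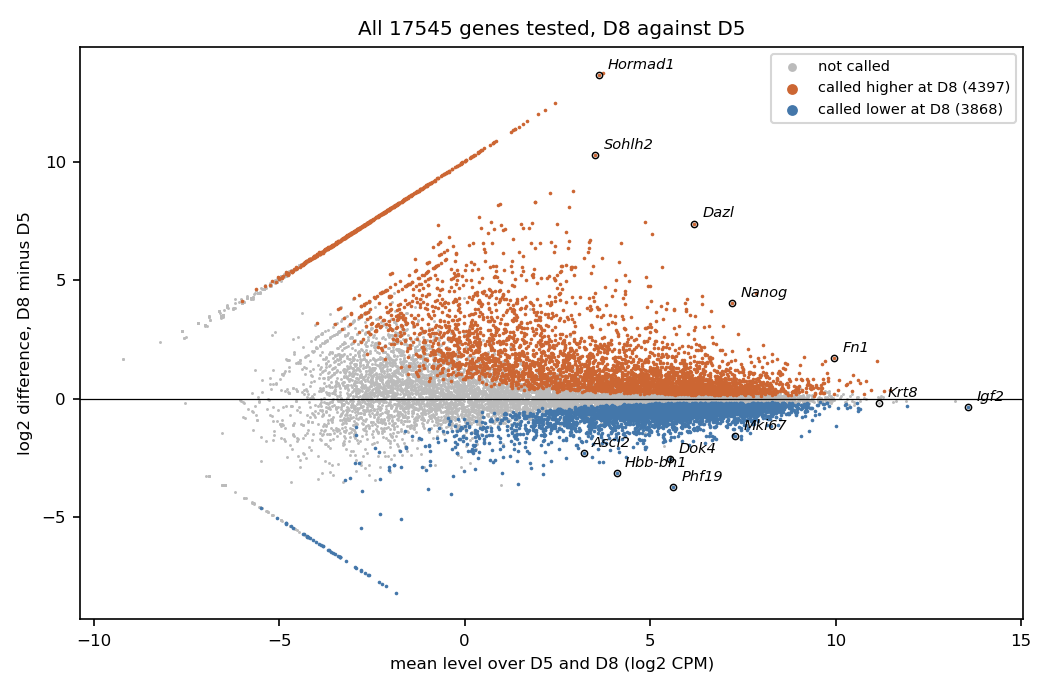
The log2 difference of D8 minus D5 for each of the 17545 genes tested (vertical axis) against its mean level over both groups in log2 CPM (horizontal axis), with 4397 genes called higher in orange, 3868 called lower in blue and genes not called in grey. The upper left diagonal holds genes without a count at D5, and the upward spread of orange points at low levels exceeds the downward spread of blue ones.

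The naive circuit came up in a block. Of 21 naive pluripotency factors and markers, 19 were called higher at D8 and none lower, with a median log2 difference of 3.35 against 0.05 over all genes tested. Nanog, a homeodomain factor of the naive circuit on chromosome 6 (chr6:122707489-122714633, GRCm38, plus strand), stood at 17.4, 13.8 and 19.4 CPM at D5 and 207, 283 and 346 CPM at D8 (log2 difference 4.05 ± 0.17, adjusted p = 1.53e-11). Esrrb, an orphan nuclear receptor that sustains naive self-renewal, gave 16.6, 8.3 and 17.5 CPM at D5 and 133, 167 and 261 CPM at D8 (log2 difference 3.73 ± 0.27, adjusted p = 6.29e-09). Zfp42 (Rex1), a zinc finger marker of the naive state, gave 3.67, 2.87 and 3.93 CPM at D5 and 40.3, 56 and 87.3 CPM at D8 (log2 difference 4.13 ± 0.23, adjusted p = 1.01e-09). Every D8 library lay above every D5 library for these 3 genes, and D8 replicate 3 was the highest.

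Dppa5a, an RNA-binding protein of naive cells, gave 24.4, 13.1 and 22.9 CPM at D5 and 326, 402 and 599 CPM at D8 (log2 difference 4.46 ± 0.26, adjusted p = 5.37e-10). Trpm1, a cation channel gene of the naive list, rose as far, from 1.22, 0.49 and 0.944 CPM to 12, 14.7 and 17.6 CPM (log2 difference 4.06 ± 0.34, adjusted p = 8.23e-08). The factors already present at D5 moved less. Tfcp2l1, a STAT3 target that maintains naive cells, stood at 99.7, 84.5 and 89.7 CPM at D5 and 239, 287 and 438 CPM at D8 (log2 difference 1.82 ± 0.16, adjusted p = 4.19e-08). Tbx3, a T-box factor of the same circuit, gave 53.2, 43.1 and 48.7 CPM at D5 and 112, 115 and 187 CPM at D8 (log2 difference 1.51 ± 0.20, adjusted p = 5.98e-06). Klf2, which acts beside Klf4, gave 35.7, 25 and 24.8 CPM at D5 and 104, 131 and 290.3 CPM at D8 (log2 difference 2.62 ± 0.28, adjusted p = 5.65e-07). Klf4 itself did not pass the test: it gave 129, 99.1 and 88.3 CPM at D5 and 109.8, 106 and 176 CPM at D8, overlapping groups in which D8 replicate 3 alone lay above all D5 libraries (log2 difference 0.31 ± 0.18, adjusted p = 0.168). It was called without D5 replicate 1.

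The summed level of the 21 naive genes was 470, 354 and 402 CPM in the D5 libraries and 1701, 2095 and 3099 CPM in the D8 libraries. The D8 libraries thus did not sit at the naive level: their mean was 30.8% of the mean sum in rES. D8 replicate 3 had the highest level of the 3 D8 libraries for all 21 genes, and D8 replicate 1 the lowest for 18.

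Most of the shared pluripotency factors were higher at D8. Pou5f1, which both pluripotent states require, stood at 5.1, 3.63 and 12.3 CPM at D5 and 75.2, 59.2 and 145 CPM at D8 (log2 difference 3.74 ± 0.41, adjusted p = 7.16e-07). It averaged 331 ± 63.1 CPM in EpiSC and 339 ± 8.15 CPM in rES, so D5 held little of it and D8 a part. Sox2, its partner on DNA, gave 10.7, 5.21 and 9.36 CPM at D5 and 72.8, 86 and 190.2 CPM at D8 (log2 difference 3.79 ± 0.30, adjusted p = 1.82e-08). For both genes the D8 libraries lay above all D5 libraries, with replicate 3 well above the other two. Dppa2 and Dppa4, paired chromatin factors of the early embryo, also rose, to 59.2, 68.7 and 93.1 CPM and 14.5, 15.9 and 26.8 CPM from 4.28, 4.82 and 5.48 CPM and 2.44, 1.5 and 2.72 CPM (log2 differences 3.92 ± 0.15 and 3.1 ± 0.27, adjusted p = 7.04e-12 and 4.07e-08).

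Of the 11 shared factors 9 were called higher and 2 lower. Both lower genes encode RNA-binding proteins of early development. Lin28a, which blocks maturation of the let-7 miRNA, gave 19, 17.9 and 16.4 CPM at D5 and 11.6, 9.28 and 12.3 CPM at D8 (log2 difference -0.69 ± 0.10, adjusted p = 2.65e-05). Trim71, a target of let-7, gave 93.9, 80.1 and 83.2 CPM at D5 and 41.6, 43.6 and 80.3 CPM at D8 (log2 difference -0.64 ± 0.18, adjusted p = 0.00849), with D8 replicate 3 among the D5 values. Its call was lost without D8 replicate 1 or without D8 replicate 2, at adjusted p = 0.0528 and 0.0527.

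**Figure D2:**
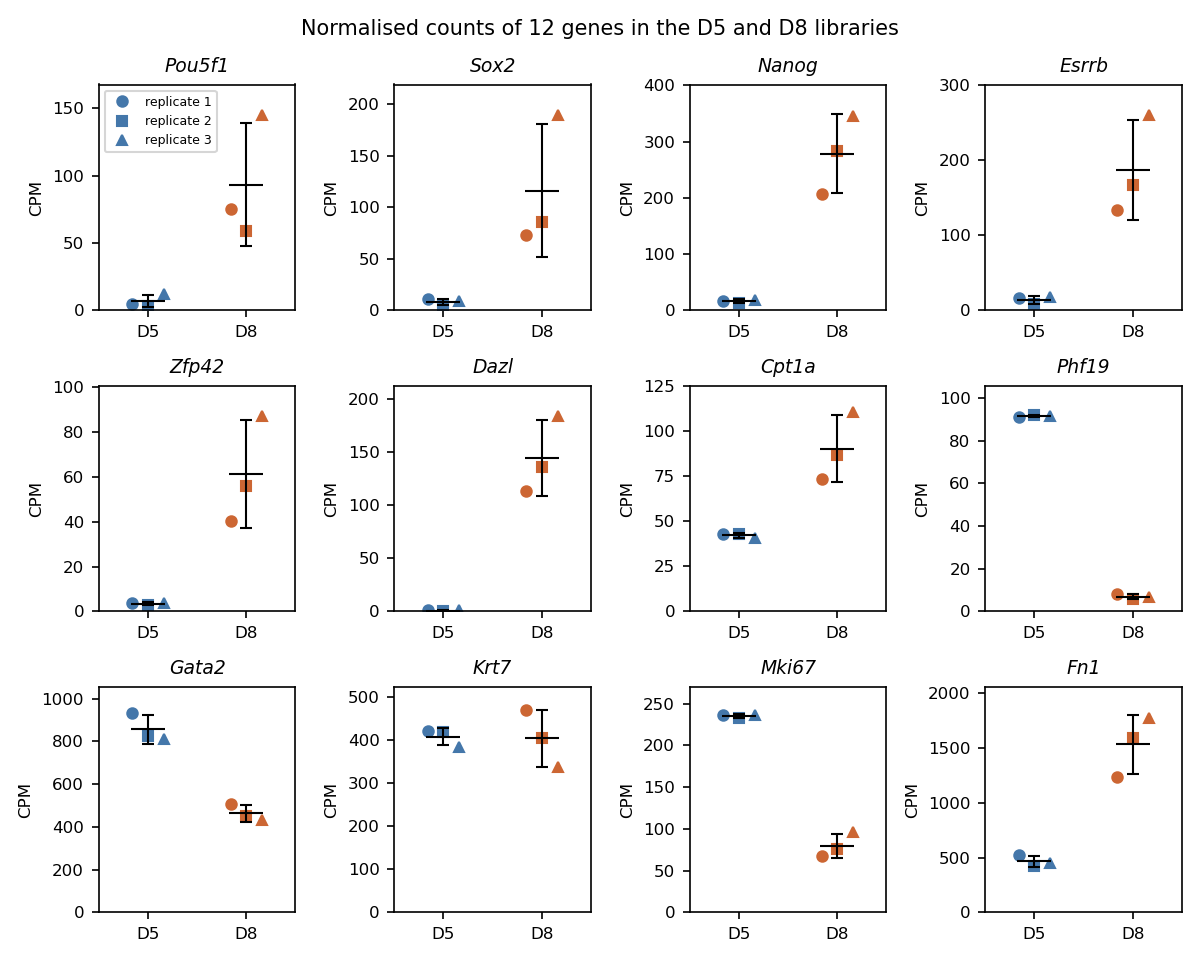
CPM of 12 genes in each D5 library (blue) and each D8 library (orange), with circles, squares and triangles for replicates 1, 2 and 3 and black bars for the mean ± SD of 3 libraries. Pou5f1, Sox2, Nanog, Esrrb, Zfp42, Dazl, Cpt1a and Fn1 were higher in all 3 D8 libraries, Phf19, Gata2 and Mki67 were lower in all 3, and the Krt7 values of the groups overlap.

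Genes used as primed markers did not move as a block. Of 15 tested, 9 were called higher (60%) and 4 lower (26.7%), the lower share being near the 22% of all genes tested. The median log2 difference was 1.00, or 0.81 with a gene without counts at D5 set to its bound. That gene, T, had 14 deposited counts over the D8 libraries. The groups of T, Otx2 and Lefty1, all called higher, overlapped. Nodal, the TGF-beta family ligand of the epiblast, gave 2.47, 1.85 and 1.91 CPM at D5 and 19.4, 21 and 32.3 CPM at D8 (log2 difference 3.54 ± 0.21, adjusted p = 6.36e-10). Lefty2, a Nodal inhibitor that is itself a Nodal target, gave 2.71, 0.768 and 2.33 CPM at D5 and 20.9, 44.5 and 44.7 CPM at D8 (log2 difference 4.25 ± 0.34, adjusted p = 1.59e-08). Zic2, a zinc finger factor, rose from 0.561, 0.539 and 0.455 CPM to 6.04, 9.76 and 18.4 CPM (log2 difference 4.45 ± 0.34, adjusted p = 1.02e-08). Foxd3, a forkhead factor needed in the epiblast, averaged 0.375 ± 0.22 CPM at D5 and 5.21 ± 2.27 CPM at D8 (log2 difference 3.78 ± 0.32, adjusted p = 3.24e-08).

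Lower genes of the primed list were Pou3f1 and Lef1 among others. Pou3f1 (Oct6), the POU factor of the primed epiblast, gave 28.5, 21.7 and 20.1 CPM at D5 and 7.8, 10.3 and 10.6 CPM at D8 (log2 difference -1.29 ± 0.16, adjusted p = 2.88e-06). Lef1, a DNA-binding partner of beta-catenin, gave 7.48, 7.23 and 7.1 CPM at D5 and 2.05, 3.29 and 2.5 CPM at D8 (log2 difference -1.46 ± 0.14, adjusted p = 1.46e-07). In both the groups were fully apart. The primed list summed to 30.3% of its rES mean at D5 and to 46.2% at D8, and its sum in EpiSC was 2475 CPM against 137 CPM at D5 and 208 CPM at D8. Single members differed from that sum. Zic2 and Foxd3 averaged 255 ± 7.31 and 31.1 ± 2.52 CPM in EpiSC, above every D8 library, whereas Nodal averaged 23.6 ± 3.87 CPM there, within the range of the D8 libraries, and Lefty2 4.04 ± 0.995 CPM, below all of them. In ESC, Nodal and Lefty2 averaged 74.4 and 323 CPM, above their EpiSC means, so in this series they were not highest in the primed state. Zic2 and Foxd3 averaged 68.8 and 14.3 CPM in ESC, below their EpiSC means.

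Germline genes were among the largest rises of the step. Of 15 tested, 14 were called higher and none lower, with a median log2 difference of 6.56, or 3.88 with the 4 genes that had no count at D5 set to their bound. Those 4 genes could not have been called lower. The bound takes 12 deposited counts per library as the floor, 0.197 CPM at D5. It was applied only to genes without any count at D5. Tex101, whose difference is the median of 6.56, had 13 deposited counts over the D5 libraries and was left as fitted. Hormad1, a HORMA-domain protein of the meiotic chromosome axis (chr3:95559677-95587671, GRCm38, plus strand), had no count in any D5 library and 15.6, 23.8 and 35.1 CPM in the D8 libraries, at least 126-fold higher (adjusted p = 2.65e-09). Dazl, an RNA-binding protein that germ cells need (chr17:50279395-50293636, minus strand), gave 0.995, 0.653 and 0.927 CPM at D5 and 114, 136 and 184 CPM at D8 (log2 difference 7.39 ± 0.38, adjusted p = 9.57e-11). Rhox13, a homeobox gene of the X-linked Rhox cluster expressed in germ cells, was without counts at D5 and had 8.11, 5.66 and 13.1 CPM at D8, at least 45.5-fold higher (adjusted p = 8.22e-08). Counts of clustered Rhox genes are uncertain where their sequences are alike.

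Other genes with a germ cell role were also higher. Sohlh2, Stk31 and Fkbp6 were among the 10 largest rises of called genes that reached 10 CPM in a group and had separate groups. Symbols that begin with Gm and a digit, end in Rik or are clone names were left out of this ranking. Sohlh2, a basic helix-loop-helix factor of germ cell differentiation, had 3 deposited counts over the D5 libraries and 18, 16.3 and 34.3 CPM at D8 (adjusted p = 1.57e-09). No fold is given against so few counts. Stk31, a testis kinase with a tudor domain, gave 0, 0.0653 and 0.135 CPM at D5 and 8.84, 10.6 and 13.8 CPM at D8 (log2 difference 7.36 ± 0.44, adjusted p = 2.65e-09). Fkbp6, a chaperone partner of the piRNA pathway that protects germ cells from transposons, gave 0.433, 0 and 0.152 CPM at D5 and 14.6, 16.5 and 31.3 CPM at D8 (log2 difference 6.71 ± 0.48, adjusted p = 1.62e-08). Tex101, a germ cell surface protein, gave 0.144, 0 and 0.0675 CPM at D5 and 6.2, 4.07 and 10.3 CPM at D8 (log2 difference 6.56 ± 0.71, adjusted p = 6.4e-07). All of these had separate groups, with D8 replicate 3 highest. Stk31, Tex101 and Fkbp6 had 12, 13 and 36 deposited counts over the D5 libraries, at or under the floor. The sizes of their log2 differences are therefore uncertain.

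The same ranking named Tuba3a, D1Pas1 and Rpl10l, genes of tubulin, DEAD-box helicase and ribosomal protein families that are active in testis. Tuba3a gave 0.433, 0.131 and 0.422 CPM at D5 and 46.3, 50.4 and 77.6 CPM at D8 (log2 difference 7.46 ± 0.32, adjusted p = 1.53e-11), D1Pas1 0.257, 0 and 0.152 CPM at D5 and 10.2, 11.1 and 20.4 CPM at D8 (log2 difference 6.65 ± 0.42, adjusted p = 4e-09) and Rpl10l 0.513, 0.555 and 0.523 CPM at D5 and 51.4, 55.2 and 91.9 CPM at D8 (log2 difference 6.96 ± 0.24, adjusted p = 1.42e-11). Each has close relatives in sequence, so their counts may be split with those copies. D1Pas1 had 25 deposited counts over the D5 libraries, under the floor, so the size of its difference is uncertain. Nptx2, a neuronal pentraxin, and Cdyl2, a chromodomain protein, completed these 10, at 12.7, 11.3 and 21.5 CPM and 8.55, 11.4 and 22.2 CPM in D8 and 6 and 9 deposited counts over the D5 libraries, all in D5 replicate 3 (adjusted p = 7.74e-09 and 1.16e-09). No fold is given for these either. Ddx4 (Vasa), the helicase that marks germ cells, stayed low at 2.78, 3.77 and 5.86 CPM in D8 (log2 difference 4.2 ± 0.77, adjusted p = 0.000204). Stag3, a meiotic cohesin, was the member not called.

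The promoters of these genes are shown because many of them hold the E-box letters CACGTG, the element that the MGA-MAX partner of the PRC1.6 complex recognises. In the RefSeq promoter table (GRCm38.p6), with the 250 bases before each start searched on both strands, CACGTG was present in 9 of 15 germline genes (60%), in 3 of 14 naive genes matched (21.4%) and in 9.27% of the 13617 tested genes that had an entry. The E2F-like letters TCCCGC were in 26.7% of the germline genes and 31.0% of all tested genes with an entry, and the letters AAGGTCA, as in an ESRRB site, in none of the germline or naive genes and 3.80% of all. The motifs do not overlap each other in the windows below, where capitals mark CACGTG and the sequence runs 5′ to 3′ on the strand of the gene. A match is a description of the sequence only. Hormad1, which is not one of the 15 listed germline genes, held a second copy nearer its start. Stag3, the listed gene not called, is among the 9 with the letters. Dazl, Rhox13, Tex101, Tdrd12, Asz1 and Tex19.1, all called higher, held none in the bases searched. The germline promoters were also richer in the letters CG, with a median of 17 against 13 for all tested genes with an entry.
Hormad1, plus strand, chr3:95559590-95559655: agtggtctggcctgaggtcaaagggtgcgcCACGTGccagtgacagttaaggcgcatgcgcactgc
Stk31, plus strand, chr6:49395454-49395519: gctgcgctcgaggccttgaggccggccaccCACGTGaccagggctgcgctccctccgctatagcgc
Slc25a31, plus strand, chr3:40708748-40708813: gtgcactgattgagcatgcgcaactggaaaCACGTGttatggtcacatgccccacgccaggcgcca
Taf7l, minus strand, chrX:134476504-134476569: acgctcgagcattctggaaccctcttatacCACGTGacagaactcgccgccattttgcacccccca

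Slc25a31, a mitochondrial ADP/ATP carrier of the testis, and Taf7l, a germ cell relative of a general transcription factor subunit, were both called higher, as were Hormad1 and Stk31. Genes of the 2-cell-like state, a rare totipotent-like state of mouse ES cell cultures, were also found at D8. Of 9 tested, 8 were called higher, and 4 of the 8 had no count at D5. The list was so low at D5 that lower calls were not possible. The higher members Dux and Zfp352 had 18 and 30 deposited counts over the D8 libraries, under the floor. The groups of Tmem92, also called higher, overlapped. Levels of the list were low. The whole list summed to at most 0.209 CPM in a D5 library and to 9.47, 9.91 and 16.3 CPM in the D8 libraries, and Zscan4f, a zinc finger gene of a tandem cluster with near-identical copies, reached 2.65, 2.66 and 4.37 CPM from 3 deposited counts at D5 (adjusted p = 7.08e-08). The count of higher members was 5 when D5 and D8 were fitted alone.

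The DNA methylation machinery did not move together. Of 11 genes, 6 were called higher and 4 lower. Tet1, a dioxygenase that oxidises 5-methylcytosine, gave 9.26, 6.88 and 10.6 CPM at D5 and 79.8, 97.7 and 172 CPM at D8 (log2 difference 3.71 ± 0.23, adjusted p = 8.38e-10), while Tet3, the family member of the oocyte and zygote, gave 270.2, 218 and 239.7 CPM at D5 and 151, 145 and 144 CPM at D8 (log2 difference -0.73 ± 0.09, adjusted p = 5.25e-06). Tet2 gave 15.2, 16.3 and 17.9 CPM at D5 and 18.6, 38.6 and 54.8 CPM at D8 (log2 difference 1.18 ± 0.26, adjusted p = 0.00115). Tet1 and Tet2 were higher in every D8 library and Tet3 lower in every one.

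The maintenance methyltransferase Dnmt1 gave 504, 442 and 428 CPM at D5 and 292, 287 and 353 CPM at D8 (log2 difference -0.56 ± 0.09, adjusted p = 4.57e-05). Of the de novo enzymes, Dnmt3a was lower, with 66.2, 68.6 and 64.6 CPM at D5 and 50.6, 51.1 and 60.1 CPM at D8 (log2 difference -0.30 ± 0.09, adjusted p = 0.00956) and Dnmt3b higher, with 35.6, 40.7 and 38.4 CPM at D5 and 46.3, 52.8 and 63.1 CPM at D8 (log2 difference 0.50 ± 0.09, adjusted p = 0.000153). Their cofactor Dnmt3l, which has no catalytic activity, gave 0.914, 0.98 and 1.64 CPM at D5 and 7.02, 16.6 and 11 CPM at D8 (log2 difference 3.3 ± 0.58, adjusted p = 0.00015). Zfp57, a KRAB zinc finger protein that protects imprints, rose from 0.69, 0.735 and 1.16 CPM to 6.79, 7.86 and 12.9 CPM (log2 difference 3.41 ± 0.24, adjusted p = 3.23e-09).

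In the ranking of called genes with at least 10 CPM in a group, the largest fall was in a Polycomb gene. That ranking also required separate groups and left out Gm, Rik and clone symbols. Phf19 (Pcl3), an accessory subunit that brings the histone H3K27 methyltransferase complex PRC2 to CpG islands (chr2:34893757-34914026, GRCm38, minus strand), gave 91.3, 91.8 and 91.8 CPM at D5 and 8.03, 5.99 and 6.74 CPM at D8 (log2 difference -3.73 ± 0.11, adjusted p = 2.73e-13). The groups were far apart and each had a small spread. It averaged 19.8 ± 1.65 CPM in EpiSC, 98.6 ± 2.85 CPM at D3 and 1.24 ± 0.182 CPM in rES, so its high level belonged to D3 and D5. Its paralog Mtf2 (Pcl2), which occupies the same place in PRC2, moved the other way, with 57.1, 60.8 and 70.4 CPM at D5 and 107, 142 and 155 CPM at D8 (log2 difference 1.1 ± 0.12, adjusted p = 6.96e-07).

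Of 12 PRC2 genes 7 were called higher (58.3%) and 3 lower (25%), but only 4 were higher without D8 replicate 2. The lower share is near the 22% of all genes tested. The catalytic subunit Ezh2 gave 112, 109 and 105 CPM at D5 and 64.7, 66.3 and 88 CPM at D8 (log2 difference -0.58 ± 0.09, adjusted p = 3.92e-05). Jarid2, a subunit that helps recruit the complex, gave 195, 174 and 189 CPM at D5 and 221, 249 and 307 CPM at D8 (log2 difference 0.48 ± 0.09, adjusted p = 0.000337), and Epop, an elongin-binding subunit, gave 399, 311 and 296 CPM at D5 and 222, 188 and 274 CPM at D8 (log2 difference -0.56 ± 0.15, adjusted p = 0.00404). The summed level of the 12 genes was 2224 CPM at D5 and 2225 CPM at D8.

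**Figure D3:**
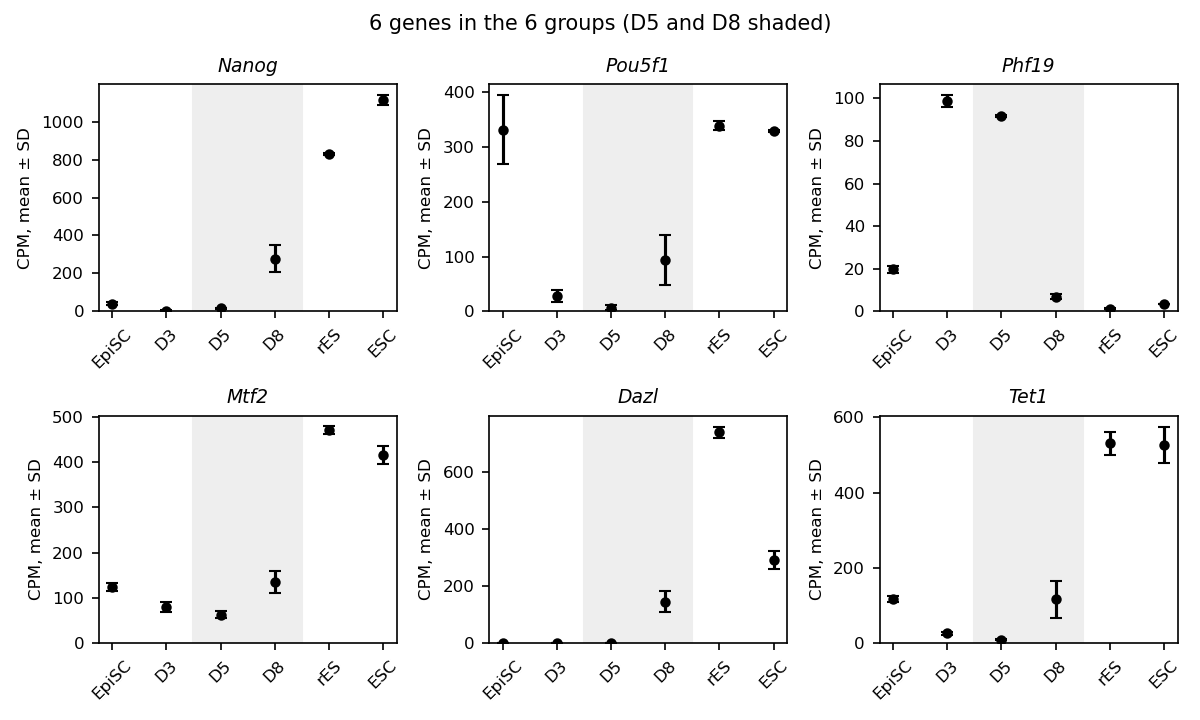
CPM of 6 genes in the 6 groups of the study, shown as the mean (point) ± SD of 3 libraries, with D5 and D8 on a grey background. Phf19 is high at D3 and D5 and low from D8 on, whereas Nanog, Pou5f1, Mtf2, Dazl and Tet1 are higher at D8 than at D5 and higher still in rES.

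Trophoblast genes were present at D5 and partly reduced at D8. Their summed level was 23.2 CPM in EpiSC and 2413 CPM on average at D5. Krt7, a keratin of trophoblast and other simple epithelia, gave 419, 418 and 384 CPM at D5 and 469, 404 and 336 CPM at D8, and its groups overlapped (log2 difference -0.01 ± 0.22, adjusted p = 0.969). It was at 1.13 ± 0.454 CPM in rES. Gata3, a trophoblast GATA factor, gave 35.5, 32.9 and 30.6 CPM at D5 and 37.6, 30.2 and 38.3 CPM at D8, also overlapping (log2 difference 0.10 ± 0.14, adjusted p = 0.621). Cdx2, which specifies the lineage, was low throughout at 2.41, 1.83 and 1.08 CPM at D5 and 1.61, 1.99 and 1.37 CPM at D8 (log2 difference -0.09 ± 0.30, adjusted p = 0.837).

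Several transcription factors of the lineage fell. Gata2, the second GATA factor of trophoblast, gave 935, 824 and 811 CPM at D5 and 509, 449.6 and 432 CPM at D8 (log2 difference -0.89 ± 0.12, adjusted p = 6.39e-06). Ascl2, a helix-loop-helix factor of the ectoplacental cone, gave 14.8, 16.9 and 14.2 CPM at D5 and 3.3, 2.87 and 3.32 CPM at D8 (log2 difference -2.28 ± 0.18, adjusted p = 1.96e-08). Both were lower in every D8 library. Hand1, which drives giant cells, gave 40.6, 42.4 and 36.1 CPM at D5 and 9.8, 14 and 12.5 CPM at D8 (log2 difference -1.71 ± 0.26, adjusted p = 6.04e-05). Gcm1, which drives labyrinth syncytium, gave 113, 87.1 and 104 CPM at D5 and 41.5, 48.2 and 35.3 CPM at D8 (log2 difference -1.28 ± 0.30, adjusted p = 0.00171). These groups were separate as well. DESeq2 did not call Hand1 or Gcm1, at adjusted p = 0.0951 and 0.258. Elf5, a trophoblast stem cell factor, was lower at 5.01, 2.93 and 3.68 CPM against 11.6, 11 and 11.1 CPM (log2 difference -1.54 ± 0.57, adjusted p = 0.0331), a call lost under DESeq2 (adjusted p = 0.405), under the replicate block (0.0523) and without any 1 of D5 replicates 1, 2 or 3 or D8 replicates 2 or 3 (0.0694 to 0.106).

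Some trophoblast genes rose instead. Syna, an envelope-derived fusion protein of the syncytium, gave 9.16, 7.81 and 7.93 CPM at D5 and 74.2, 54.1 and 56.1 CPM at D8 (log2 difference 2.89 ± 0.37, adjusted p = 4.94e-06). Plet1, a surface protein of trophoblast progenitors, gave 36.6, 36.1 and 32.8 CPM at D5 and 122, 95.6 and 81.4 CPM at D8 (log2 difference 1.51 ± 0.13, adjusted p = 6.14e-08). Tfap2a, an AP-2 factor, gave 3.8, 2.84 and 2.61 CPM at D5 and 10.4, 9.99 and 8.42 CPM at D8 (log2 difference 1.64 ± 0.17, adjusted p = 4.96e-07). Over the 19 genes tested 4 were called higher (21.1%) and 9 lower (47.4%), beside 25.1% and 22% of all genes tested. The median log2 difference was -0.32. The giant cell hormone gene Prl3d1 had no count in any of the 6 libraries.

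The summed level of the trophoblast list was 2591, 2369 and 2280 CPM in the D5 libraries and 2112, 1869 and 1698 CPM in the D8 libraries, all 3 lower. At D8 it was 911% of its mean in rES. The cultures at D8 therefore carried a trophoblast gene set above the naive level together with a naive set below it. Whether the same cells carried both was not tested.

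Epithelial and imprinted genes, many of which trophoblast also expresses, were mixed. Of 15 epithelial and junction genes 2 were called higher (13.3%) and 5 lower (33.3%), beside 25.1% and 22% of all genes tested. Krt8, a simple-epithelium keratin, gave 2523, 2459 and 2373 CPM at D5 and 2467, 2206 and 1847 CPM at D8 (log2 difference -0.17 ± 0.10, adjusted p = 0.158). Epcam, an adhesion molecule, gave 361, 324 and 325 CPM at D5 and 204, 185 and 185 CPM at D8 (log2 difference -0.81 ± 0.06, adjusted p = 1.16e-08), and Cdh1, the epithelial cadherin, gave 1554, 1378 and 1387 CPM at D5 and 1164, 1025 and 1082 CPM at D8 (log2 difference -0.40 ± 0.06, adjusted p = 4.96e-05). Tjp1, a tight junction scaffold, was lower as well, at 231, 226 and 228 CPM against 346, 318 and 344 CPM (log2 difference -0.55 ± 0.06, adjusted p = 1.42e-06). The 2 higher members were the keratin Krt19, with 41.1, 34.2 and 33.4 CPM at D5 and 93.5, 81.4 and 82.2 CPM at D8 (log2 difference 1.24 ± 0.19, adjusted p = 3.03e-05), and the claudin Cldn4, with 977, 1074 and 981 CPM at D5 and 1913, 1643 and 1401 CPM at D8 (log2 difference 0.71 ± 0.20, adjusted p = 0.00733).

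Of 29 imprinted genes 11 were called higher and 7 lower, which is near the shares over all genes (25.1% and 22%) for the lower calls and above it for the higher ones. Sfmbt2, a Polycomb-related gene expressed from the paternal allele in placenta, gave 799.5, 778 and 848 CPM at D5 and 297, 277 and 234 CPM at D8 (log2 difference -1.59 ± 0.11, adjusted p = 5.15e-09). Phlda2, a maternally expressed gene that limits placental growth, gave 1463, 1449.8 and 1329 CPM at D5 and 807, 609 and 529 CPM at D8 (log2 difference -1.13 ± 0.23, adjusted p = 0.000647). Igf2, the fetal and placental growth factor, gave 13778, 13712 and 13553 CPM at D5 and 11772, 11203 and 9278 CPM at D8 (log2 difference -0.35 ± 0.13, adjusted p = 0.034), a difference that DESeq2 did not call (adjusted p = 0.0617) and that was also lost with RLE scaling (0.0758) and without any 1 of the D5 replicates or D8 replicate 3 (0.0644 to 0.142). Cdkn1c, a cell cycle inhibitor expressed from the maternal allele, gave 10.7, 9.44 and 11.4 CPM at D5 and 23.2, 21 and 22.6 CPM at D8 (log2 difference 1.09 ± 0.21, adjusted p = 0.000346), and Zim1, a zinc finger gene, gave 26, 22.1 and 28.3 CPM at D5 and 67.9, 70.7 and 68.7 CPM at D8 (log2 difference 1.44 ± 0.29, adjusted p = 0.000468). These counts do not separate the parental alleles. Jade1, a subunit of a histone acetyltransferase complex, gave 148, 144 and 152 CPM at D5 and 334, 377 and 402 CPM at D8 (log2 difference 1.32 ± 0.07, adjusted p = 8.29e-11).

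Several embryonic erythroid genes, present at D5, fell. Of 10 tested, 5 were called lower and none higher (3 lower under DESeq2), with a median log2 difference of -1.70. Hbb-bh1, an embryonic beta-globin, gave 25.2, 28 and 39.3 CPM at D5 and 2.64, 3.5 and 4.31 CPM at D8 (log2 difference -3.14 ± 0.39, adjusted p = 3.82e-05). Hba-x, the embryonic alpha-globin, gave 111, 96.6 and 108 CPM at D5 and 17.6, 31.8 and 31.9 CPM at D8 (log2 difference -1.96 ± 0.37, adjusted p = 0.00103), which DESeq2 did not call (adjusted p = 0.549). Tal1, the haematopoietic helix-loop-helix factor, gave 7.96, 7.14 and 7 CPM at D5 and 0.96, 2.2 and 1.51 CPM at D8 (log2 difference -2.23 ± 0.42, adjusted p = 0.000273), and the erythroid factor Klf1 gave 3.35, 3.4 and 4.13 CPM at D5 and 0.391, 0.428 and 0.44 CPM at D8 (log2 difference -3.11 ± 0.52, adjusted p = 8.72e-05). Gata1, also on the erythroid list, gave 8.37, 7.02 and 10.6 CPM at D5 and 9.02, 10.3 and 7.57 CPM at D8, with overlapping groups (log2 difference 0.05 ± 0.52, adjusted p = 0.958). Hbb-y and Alas2 were not called either. Adult beta-globins Hbb-bt and Hbb-bs had no count in any of the 6 libraries.

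The near-identical adult alpha-globin genes divided their counts differently between libraries. Hba-a1 gave 129, 26.8 and 149 CPM at D5 and 22.1, 72.4 and 36.8 CPM at D8 and Hba-a2 2.9, 121 and 4.25 CPM at D5 and 24.4, 3.85 and 19.08 CPM at D8. In D5 replicate 2 most counts stood under Hba-a2 and in the other two D5 libraries under Hba-a1, so neither gene can be read alone, and neither was called (adjusted p = 0.115 and 0.229). Without D5 replicate 2 the Hba-a2 difference reversed.

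The remaining falls chosen by size among genes that reached 10 CPM were of genes with other roles, with separate groups in each. Dok4, a docking protein of receptor tyrosine kinases, gave 81.2, 85.1 and 73.3 CPM at D5 and 16.9, 11.5 and 13 CPM at D8 (log2 difference -2.53 ± 0.13, adjusted p = 1.41e-10). Cers3, a ceramide synthase for very long acyl chains, gave 22.5, 24.2 and 21.7 CPM at D5 and 4.25, 4.48 and 1.98 CPM at D8 (log2 difference -2.67 ± 0.38, adjusted p = 1.41e-05). Their highest D8 values lay below their lowest D5 values. Ptpru, a receptor tyrosine phosphatase, gave 17.4, 18.6 and 18.6 CPM at D5 and 3.76, 3.57 and 2.72 CPM at D8 (log2 difference -2.44 ± 0.18, adjusted p = 8.6e-09). Nxpe3, a neurexophilin-like gene, gave 32.7, 35.6 and 36.2 CPM at D5 and 7.86, 5.64 and 5.36 CPM at D8 (log2 difference -2.47 ± 0.17, adjusted p = 2.95e-09). Loxl4, a lysyl oxidase of the matrix, and Mab21l4 fell by 2.24 and 2.66 on the log2 scale (adjusted p = 5.57e-05 and 0.00067), and DESeq2 called neither, at 0.0550 and 0.0508.

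Markers of further cell types that the cultures could hold were read for the same libraries. Of 13 primitive and visceral endoderm genes 7 were called higher (53.8%) and none lower, beside 25.1% and 22% of all genes tested. Dab2, an endocytic adaptor of that epithelium, gave 13.9, 13.4 and 14.6 CPM at D5 and 40.7, 34.7 and 33.2 CPM at D8 (log2 difference 1.37 ± 0.14, adjusted p = 3.2e-07), Col4a1, a basement membrane collagen, gave 437, 461 and 481 CPM at D5 and 839.8, 753 and 719.6 CPM at D8 (log2 difference 0.75 ± 0.10, adjusted p = 1.09e-05), and the GATA factor Gata4 gave 4.59, 5.37 and 4.35 CPM at D5 and 15.1, 7.95 and 11.8 CPM at D8 (log2 difference 1.28 ± 0.31, adjusted p = 0.00212). Sox17, an endoderm factor, gave 5.08, 4.07 and 4.79 CPM at D5 and 9.05, 7.42 and 9.85 CPM at D8 (log2 difference 0.92 ± 0.28, adjusted p = 0.012), a call lost without D5 replicate 2 (adjusted p = 0.0514). Dab2 and Col4a1 were separate between groups with D8 replicate 1 highest. Gata6 and Pdgfra, of the same list, were not called and their groups overlapped. Gata6 gave 16.2, 11.1 and 11.1 CPM at D5 and 15.7, 15.2 and 18 CPM at D8 (log2 difference 0.36 ± 0.26, adjusted p = 0.288). Pdgfra gave 26.5, 27.6 and 25.3 CPM at D5 and 27.5, 28.2 and 23.7 CPM at D8. Afp was called higher on 37 deposited counts over the D8 libraries, with overlapping groups.

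Of 16 fibroblast and matrix genes 10 were called higher and 2 lower (1 lower under 8 of the alternatives). Fn1, fibronectin, gave 521, 427 and 449 CPM at D5 and 1239.7, 1589.6 and 1772 CPM at D8 (log2 difference 1.72 ± 0.13, adjusted p = 7.74e-09), and it averaged 2247 ± 87.7 CPM in ESC and 2608 ± 53.1 CPM in rES, so it does not mark fibroblasts alone in these cultures. Lum and Dcn, matrix proteoglycans of fibroblasts, gave 34.8, 37.6 and 37.1 CPM at D5 and 64.5, 169.8 and 93.1 CPM at D8 (log2 difference 1.58 ± 0.29, adjusted p = 0.000202) for Lum and 17.2, 17.5 and 18.1 CPM at D5 and 38, 81.7 and 49.4 CPM at D8 (log2 difference 1.68 ± 0.34, adjusted p = 0.000721) for Dcn. Mmp2, a matrix metalloproteinase, gave 17.3, 18.8 and 15.1 CPM at D5 and 40.2, 57.7 and 53.1 CPM at D8 (log2 difference 1.56 ± 0.13, adjusted p = 4.18e-08). The lower members were Acta2, smooth muscle actin, with 476, 451 and 477 CPM at D5 and 239, 284 and 262 CPM at D8 (log2 difference -0.84 ± 0.19, adjusted p = 0.0015), and Thy1, a surface glycoprotein, with 3.05, 2.17 and 1.79 CPM at D5 and 1.45, 1.09 and 1.41 CPM at D8 (log2 difference -0.84 ± 0.33, adjusted p = 0.0467). D8 replicate 2 was the highest D8 library for 14 of the 16 genes. Col3a1, a fibrillar collagen, gave 137, 150.2 and 167 CPM at D5 and 169, 387 and 207 CPM at D8 (log2 difference 0.75 ± 0.22, adjusted p = 0.00792) and was not called without D8 replicate 2 (adjusted p = 0.0990). The part of such cells in the other results was not tested.

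Lineage genes of the germ layers stayed low. Of 10 mesoderm and definitive endoderm genes 5 were called higher and 1 lower, and the list summed to 27.8 to 31.4 CPM at D5 and 33.5 to 39.6 CPM at D8. Gsc, a homeobox gene of the anterior primitive streak, was without counts at D5 and had 2.12, 1.81 and 3.17 CPM at D8, at least 12-fold higher (adjusted p = 1.02e-06). The lower gene, the VEGF receptor Kdr, gave 4.14, 4.65 and 6.71 CPM at D5 and 3.3, 3.51 and 3.21 CPM at D8 (log2 difference -0.63 ± 0.19, adjusted p = 0.0107) and was not called without D5 replicate 3. Of 7 neural progenitor genes 2 were called higher (28.6%) and 1 lower (14.3%), beside 25.1% and 22% of all genes tested. Sox1, a neural plate factor, reached 2.26, 4.09 and 3.8 CPM from 0.257, 0.131 and 0.135 CPM (log2 difference 4.27 ± 0.41, adjusted p = 1.74e-07), whereas its relative Sox3 gave 6.9, 6.06 and 4.74 CPM at D5 and 4.64, 2.92 and 3.94 CPM at D8 (log2 difference -0.63 ± 0.16, adjusted p = 0.00376). The size of the Sox1 difference is uncertain, since it rests on 32 deposited counts over the D5 libraries, under the floor. Without D5 replicate 2 only 1 neural gene was higher.

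**Figure D4:**
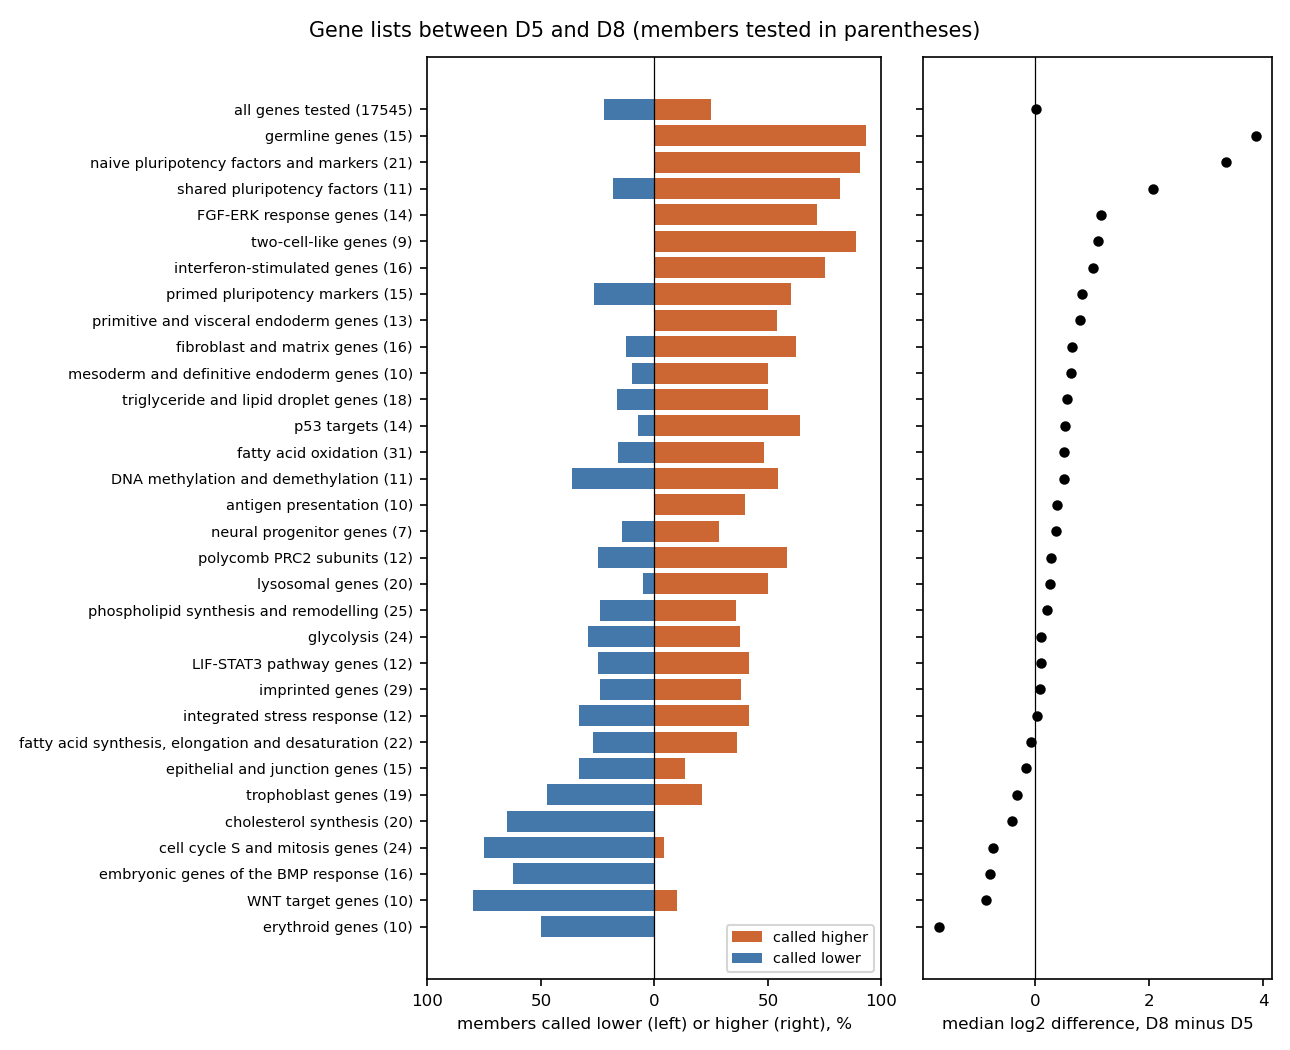
For 31 gene lists and all genes tested, the percent of tested members called lower (blue, left) and higher (orange, right) at D8 against D5, and in the right panel the median log2 difference with genes without counts in a group set to their bound. Germline and naive genes lie at the top, erythroid genes, WNT targets, BMP response genes and cell cycle genes at the bottom, and all genes tested in the uppermost row serve as the comparison.

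The signalling readouts went in different directions. Genes that respond to BMP, a TGF-beta family ligand active in trophoblast and mesoderm, were lower: 10 of 16 were called lower and none higher, with a median log2 difference of -0.79. Id1 and Id2, inhibitors of helix-loop-helix factors and direct SMAD targets, gave 42.7, 41.4 and 36.4 CPM at D5 and 19.2, 17.1 and 12.6 CPM at D8 (log2 difference -1.3 ± 0.14, adjusted p = 4.07e-07) for Id1 and 92.6, 94.1 and 95.7 CPM at D5 and 43.3, 39.7 and 25.7 CPM at D8 (log2 difference -1.38 ± 0.17, adjusted p = 3.65e-06) for Id2. Smad6, a feedback inhibitor, gave 15.9, 18.8 and 16.8 CPM at D5 and 7.1, 6.99 and 7.1 CPM at D8 (log2 difference -1.28 ± 0.11, adjusted p = 2.58e-08). The ligand gene Bmp2 gave 10.6, 9.65 and 11.1 CPM at D5 and 5.62, 5.88 and 3.38 CPM at D8 (log2 difference -1.07 ± 0.27, adjusted p = 0.00315).

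Of 10 WNT target genes 8 were called lower and 1 higher, with a median of -0.87. Axin2, the feedback scaffold of beta-catenin destruction, gave 59.8, 50.9 and 55 CPM at D5 and 26.8, 32.8 and 35.2 CPM at D8 (log2 difference -0.80 ± 0.12, adjusted p = 1.73e-05). The inhibitors Dkk1 and Nkd1 gave 29.1, 28.5 and 27.7 CPM at D5 and 7.02, 7.73 and 5.7 CPM at D8 (log2 difference -2.06 ± 0.20, adjusted p = 3.95e-07) for Dkk1 and 19.4, 16.6 and 15.9 CPM at D5 and 3.76, 4.53 and 5.78 CPM at D8 (log2 difference -1.88 ± 0.19, adjusted p = 2.12e-07) for Nkd1. All of these had separate groups. Lgr5, an R-spondin receptor, gave 81.5, 75.9 and 85.8 CPM at D5 and 33.5, 28.2 and 19.4 CPM at D8 (log2 difference -1.58 ± 0.27, adjusted p = 9.86e-05). The exception was Sp5, a zinc finger factor, with 2.5, 2.51 and 2.83 CPM at D5 and 8.32, 6.51 and 20.5 CPM at D8 (log2 difference 2.16 ± 0.33, adjusted p = 3.73e-05), and it was highest in D8 replicate 3. Among ligands, Wnt8a was one of the 10 largest falls of the ranking by size, with 10.8, 13.5 and 9.26 CPM at D5 and 2.28, 1.47 and 2.26 CPM at D8 (log2 difference -2.49 ± 0.29, adjusted p = 1.73e-06).

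FGF-ERK response genes rose in 10 of 14 cases, with none lower and a median log2 difference of 1.16. Etv5, an ETS factor, gave 13.7, 9.99 and 12.5 CPM at D5 and 97.3, 125 and 183 CPM at D8 (log2 difference 3.48 ± 0.17, adjusted p = 5.25e-11). The feedback inhibitors Spry2 and Spred2 gave 1.4, 1.73 and 1.13 CPM at D5 and 7.41, 5.99 and 7.78 CPM at D8 (log2 difference 2.31 ± 0.15, adjusted p = 1.22e-09) for Spry2 and 3.79, 3.61 and 5.11 CPM at D5 and 12.8, 15.3 and 30.6 CPM at D8 (log2 difference 2.23 ± 0.23, adjusted p = 3.83e-07) for Spred2, and the MAP kinase phosphatase Dusp4 gave 2.39, 1.91 and 3.39 CPM at D5 and 9.02, 8.51 and 9.15 CPM at D8 (log2 difference 1.79 ± 0.19, adjusted p = 5.85e-07). All 4 genes had separate groups. The list as a whole stood at 35.3% of its rES sum.

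The LIF-STAT3 list moved in both directions. Of 12 genes 5 were called higher (41.7%) and 3 lower (25%), the lower share being near the 22% of all genes tested. The ligand Lif was lower, with 69.7, 62.1 and 69 CPM at D5 and 38.2, 41 and 36 CPM at D8 (log2 difference -0.80 ± 0.13, adjusted p = 6.03e-05), as was the kinase Jak1, with 234, 235 and 228 CPM at D5 and 165, 152 and 145 CPM at D8 (log2 difference -0.59 ± 0.07, adjusted p = 8.29e-07). The receptor Lifr was higher, with 8.12, 11.5 and 9.38 CPM at D5 and 24.8, 32.8 and 33.2 CPM at D8 (log2 difference 1.65 ± 0.13, adjusted p = 1.3e-08), and Stat3 slightly so, with 93, 104 and 107 CPM at D5 and 126, 131 and 118 CPM at D8 (log2 difference 0.30 ± 0.07, adjusted p = 0.00161).

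The targets Socs3, a feedback inhibitor, Pim1, a survival kinase, and Bcl3, an NF-kappa-B cofactor, were higher too. Socs3 gave 24.4, 22.6 and 25.2 CPM at D5 and 53.7, 47.2 and 58.2 CPM at D8 (log2 difference 1.14 ± 0.14, adjusted p = 2.36e-06), Pim1 89, 78.8 and 76.9 CPM at D5 and 182, 180.1 and 246 CPM at D8 (log2 difference 1.31 ± 0.11, adjusted p = 2.73e-08) and Bcl3 9.21, 9.36 and 7.96 CPM at D5 and 23, 21.8 and 33.9 CPM at D8 (log2 difference 1.57 ± 0.18, adjusted p = 1.13e-06). Their D8 libraries all lay above their D5 libraries.

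Cpt1a, the enzyme the study is named for, which makes the acylcarnitines that carry long-chain fatty acids into mitochondria, gave 43.1, 43 and 40.5 CPM at D5 and 73.5, 86.8 and 110.3 CPM at D8 (log2 difference 1.09 ± 0.10, adjusted p = 1.53e-07; chr19:3322334-3385733, GRCm38, plus strand). All D8 libraries were above all D5 libraries, with replicate 3 highest. Cpt2, which reverses the reaction inside mitochondria, gave 86.3, 96.1 and 93.6 CPM at D5 and 96.9, 82.4 and 64.3 CPM at D8, with overlapping groups, and did not pass the test (log2 difference -0.18 ± 0.12, adjusted p = 0.245). It was called lower without D8 replicate 1.

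Of 31 fatty acid oxidation genes 15 were called higher and 5 lower, the lower count being 2 to 8 over the alternatives, with a median log2 difference of 0.51. Transport steps were among the higher ones. Slc22a5, the plasma membrane carnitine transporter, gave 33.5, 31.9 and 33.5 CPM at D5 and 80.5, 64.1 and 55.1 CPM at D8 (log2 difference 1.01 ± 0.12, adjusted p = 1.86e-06). Slc25a20, the mitochondrial carnitine-acylcarnitine carrier, gave 41.1, 36.3 and 37.1 CPM at D5 and 65.5, 70.6 and 72.3 CPM at D8 (log2 difference 0.86 ± 0.11, adjusted p = 4.07e-06). Acadm, the medium-chain acyl-CoA dehydrogenase, gave 100.5, 92.8 and 97 CPM at D5 and 200.4, 194 and 209 CPM at D8 (log2 difference 1.06 ± 0.07, adjusted p = 1.43e-09). The 5 lower genes act in the mitochondrial oxidation steps. They were Acadvl, the very long-chain dehydrogenase, Hadhb, a subunit of the trifunctional protein, Echs1, a hydratase, and Etfa and Etfdh, which pass on the electrons, with log2 differences of -0.48, -0.30, -0.19, -0.26 and -0.34 (adjusted p = 0.0264, 0.0438, 0.0254, 0.0111 and 0.0038). Their groups were separate except for Acadvl.

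The peroxisomal genes Ehhadh, a bifunctional oxidation enzyme, and Crot, which exports shortened acyl groups as carnitine esters, gave 30.5, 33.9 and 36.4 CPM at D5 and 60.6, 59.4 and 41.6 CPM at D8 (log2 difference 0.68 ± 0.14, adjusted p = 0.000823) for Ehhadh and 29.8, 32.1 and 36.2 CPM at D5 and 64.5, 59.2 and 54 CPM at D8 (log2 difference 0.86 ± 0.08, adjusted p = 1.04e-07) for Crot. The summed level of the list was 2134 to 2172 CPM at D5 and 2391 to 2855 CPM at D8. Unlike Cpt1a itself, the list was highest in D8 replicate 1, which led 22 of the 31 genes.

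The core enzymes of fatty acid synthesis and most cholesterol genes were lower. Acly, Acaca and Fasn, which make cytosolic acetyl-CoA, malonyl-CoA and palmitate in turn, were all lower. Acly gave 724, 638 and 677 CPM at D5 and 517, 479 and 521 CPM at D8 (log2 difference -0.43 ± 0.07, adjusted p = 5.19e-05), Acaca 249.6, 229.7 and 249.8 CPM at D5 and 176, 176 and 146 CPM at D8 (log2 difference -0.55 ± 0.07, adjusted p = 6.94e-06) and Fasn 1625, 1410.0 and 1461 CPM at D5 and 1190.0, 1178 and 1141 CPM at D8 (log2 difference -0.36 ± 0.08, adjusted p = 0.00131). Over the 22 genes of synthesis, elongation and desaturation 8 were called higher (36.4%) and 6 lower (27.3%), beside 25.1% and 22% of all genes tested.

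Chain-modifying members differed among themselves. Fads3, of the desaturase cluster, gave 47.6, 43.2 and 42.4 CPM at D5 and 167, 155 and 131 CPM at D8 (log2 difference 1.77 ± 0.22, adjusted p = 3.64e-06), the elongase Elovl4 gave 5.18, 3.9 and 5.08 CPM at D5 and 8.33, 9.56 and 7.29 CPM at D8 (log2 difference 0.83 ± 0.19, adjusted p = 0.00143) and the elongase Elovl7 gave 21.1, 23.4 and 23.9 CPM at D5 and 8.99, 8.98 and 8.49 CPM at D8 (log2 difference -1.37 ± 0.12, adjusted p = 3.36e-08). Of 20 cholesterol synthesis genes 13 were called lower and none higher, with a median log2 difference of -0.42 and no member at 2-fold. Idi1 and Lss, the isopentenyl isomerase and lanosterol synthase, gave 149, 163 and 175 CPM at D5 and 91.5, 89.2 and 73.6 CPM at D8 (log2 difference -0.94 ± 0.11, adjusted p = 1.82e-06) for Idi1 and 139, 132 and 141 CPM at D5 and 87.7, 75.4 and 76 CPM at D8 (log2 difference -0.79 ± 0.07, adjusted p = 1.1e-07) for Lss.

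Of 18 triglyceride and lipid droplet genes 9 were called higher (50%) and 3 lower (16.7%), beside 25.1% and 22% of all genes tested. Plin2, the droplet coat protein, gave 98.5, 103 and 102.1 CPM at D5 and 214, 215 and 185 CPM at D8 (log2 difference 1.01 ± 0.07, adjusted p = 5.15e-09). Plin4, a related coat protein, gave 14.5, 13.6 and 14.2 CPM at D5 and 53.4, 50.4 and 40.9 CPM at D8 (log2 difference 1.77 ± 0.37, adjusted p = 0.000746). Both were higher in every D8 library. Lpin2, a phosphatidate phosphatase, gave 28.3, 27.5 and 34.7 CPM at D5 and 90.2, 88.8 and 76.2 CPM at D8 (log2 difference 1.5 ± 0.11, adjusted p = 4.42e-09). Cidea, a droplet fusion protein, gave 1.12, 1.19 and 1.64 CPM at D5 and 9, 6.48 and 9.27 CPM at D8 (log2 difference 2.65 ± 0.44, adjusted p = 7.98e-05). The lower members were the acyltransferases Dgat2 and Mogat2 and the phosphatase Lpin3, with log2 differences of -0.34, -1.01 and -0.66 (adjusted p = 0.013, 0.00728 and 0.00116).

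Of 25 phospholipid genes 9 were called higher (36%) and 6 lower (24%, or 3 genes without D8 replicate 3), of which the lower share is near the 22% of all genes tested. The remodelling acyltransferase Lpcat1 gave 37.8, 38 and 42.2 CPM at D5 and 121, 132 and 138 CPM at D8 (log2 difference 1.73 ± 0.07, adjusted p = 1.53e-11) and its relative Lpcat4 gave 17.2, 18.9 and 19.06 CPM at D5 and 9.69, 6.87 and 8.94 CPM at D8 (log2 difference -1.12 ± 0.14, adjusted p = 4.47e-06). Chpt1, which completes phosphatidylcholine synthesis, gave 13.7, 14.7 and 16 CPM at D5 and 44.5, 45.6 and 39.7 CPM at D8 (log2 difference 1.55 ± 0.12, adjusted p = 1.9e-08). In Lpcat1 and Lpcat4 the groups were separate and in opposite order.

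Of 24 glycolysis genes 9 were called higher (37.5%) and 7 lower (29.2%), beside 25.1% and 22% of all genes tested. Slc16a3, a lactate exporter, gave 45.6, 43.7 and 43.5 CPM at D5 and 139.7, 157 and 145 CPM at D8 (log2 difference 1.73 ± 0.16, adjusted p = 7.34e-08), Slc2a3, a glucose transporter, gave 264, 238 and 242 CPM at D5 and 323, 413 and 561 CPM at D8 (log2 difference 0.80 ± 0.13, adjusted p = 6.87e-05) and Hk2, a hexokinase, gave 47.7, 42.1 and 37 CPM at D5 and 74.1, 95.4 and 110.3 CPM at D8 (log2 difference 1.14 ± 0.14, adjusted p = 1.85e-06). Among the lower ones were Pgk1 and Tpi1, enzymes of the later and middle steps, with log2 differences of -0.71 and -0.60 (adjusted p = 5.06e-06 and 2.49e-05).

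Genes of DNA synthesis and mitosis were lower. Of 24 genes 18 were called lower and 1 higher, with a median log2 difference of -0.74. Mki67, the proliferation antigen Ki-67, gave 236, 232 and 236 CPM at D5 and 67.6, 76 and 95.7 CPM at D8 (log2 difference -1.56 ± 0.12, adjusted p = 1.6e-08). Rrm1 and Rrm2, the subunits of ribonucleotide reductase, gave 278, 314 and 319 CPM at D5 and 146, 138 and 148 CPM at D8 (log2 difference -1.08 ± 0.07, adjusted p = 1e-09) for Rrm1 and 257, 243 and 239 CPM at D5 and 85.9, 91.8 and 123 CPM at D8 (log2 difference -1.3 ± 0.09, adjusted p = 5.35e-09) for Rrm2. These were lower in every D8 library. Ccna2, cyclin A, gave 211, 215 and 213 CPM at D5 and 76.9, 85.6 and 101 CPM at D8 (log2 difference -1.28 ± 0.08, adjusted p = 1.17e-09), and Plk1, a mitotic kinase, gave 132, 109.5 and 106 CPM at D5 and 38, 36.5 and 70.3 CPM at D8 (log2 difference -1.26 ± 0.18, adjusted p = 1.25e-05). The higher member, the helicase subunit Mcm7, gave 133, 125 and 120.4 CPM at D5 and 128, 147 and 211 CPM at D8 (log2 difference 0.36 ± 0.12, adjusted p = 0.0173) and was not called without D8 replicate 3, without D5 replicate 3 or with D5 and D8 fitted alone (adjusted p = 0.120, 0.0638 and 0.100). D8 replicate 3 was the highest D8 library for all 24 genes, and D8 replicate 1 the lowest for 22.

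Targets of p53 were higher in 9 of 14 cases and lower in 1. Cdkn1a (p21), a cell cycle inhibitor, gave 139.6, 142 and 140.5 CPM at D5 and 186, 214 and 229 CPM at D8 (log2 difference 0.58 ± 0.10, adjusted p = 0.000144), and Sesn1, a stress sensor, gave 80.8, 71.3 and 83.5 CPM at D5 and 191, 182 and 166 CPM at D8 (log2 difference 1.19 ± 0.07, adjusted p = 3.61e-10). Trp53inp1, a p53 cofactor, gave 158, 169.9 and 176 CPM at D5 and 275, 316 and 336 CPM at D8 (log2 difference 0.88 ± 0.09, adjusted p = 3.58e-07). Perp, a desmosome protein, was the lower one, with 422, 435 and 436 CPM at D5 and 334, 301 and 249 CPM at D8 (log2 difference -0.55 ± 0.11, adjusted p = 0.000312).

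Of 12 integrated stress response genes 5 were called higher (41.7%) and 4 lower (33.3%), beside 25.1% and 22% of all genes tested. Cth, which makes cysteine from cystathionine, gave 4.92, 2.35 and 4.08 CPM at D5 and 41.2, 57.2 and 70.03 CPM at D8 (log2 difference 3.89 ± 0.20, adjusted p = 1.39e-10), and Asns, asparagine synthetase, gave 128, 120.4 and 123 CPM at D5 and 270.1, 312 and 385 CPM at D8 (log2 difference 1.38 ± 0.09, adjusted p = 1.22e-09). Phgdh, the entry enzyme of serine synthesis, went down, with 96, 83.2 and 82.4 CPM at D5 and 36.8, 39.4 and 53.2 CPM at D8 (log2 difference -1.02 ± 0.10, adjusted p = 2.02e-07). The list median was 0.03 and changed sign without D5 replicate 2 or 3.

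Interferon-stimulated genes were higher in 12 of 16 cases with none lower, and their median log2 difference was 1.02. Oas1a, a sensor enzyme of double-stranded RNA, gave 20.2, 19.3 and 20.8 CPM at D5 and 88.4, 91.4 and 88.8 CPM at D8 (log2 difference 2.16 ± 0.13, adjusted p = 5.9e-10), and Ifit2, an antiviral RNA-binding protein, gave 9.4, 8 and 9.22 CPM at D5 and 37.5, 42.4 and 34.6 CPM at D8 (log2 difference 2.1 ± 0.28, adjusted p = 6e-06). Ifit1 and Ifit3, of the same family, gave 19.8, 18.1 and 21.4 CPM at D5 and 59.2, 66.8 and 43.6 CPM at D8 (log2 difference 1.52 ± 0.42, adjusted p = 0.00708) for Ifit1 and 5.15, 4.36 and 5.89 CPM at D5 and 27.4, 29.9 and 20.1 CPM at D8 (log2 difference 2.33 ± 0.50, adjusted p = 0.0015) for Ifit3, and DESeq2 called neither (adjusted p = 0.393 and 0.253). The list sum at D8 was 1366% of that in rES.

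Of 10 antigen presentation genes 4 were called higher (40%) and none lower, beside 25.1% and 22% of all genes tested. B2m, the light chain of MHC class I, gave 142, 149 and 152 CPM at D5 and 239, 206 and 165 CPM at D8 (log2 difference 0.46 ± 0.10, adjusted p = 0.00106), and Tap1, the peptide transporter, gave 16.7, 12.4 and 13.7 CPM at D5 and 26.7, 27 and 22.7 CPM at D8 (log2 difference 0.84 ± 0.15, adjusted p = 0.000158). H2-T23, a non-classical class I gene with close relatives, gave 12.4, 9.78 and 10.8 CPM at D5 and 37.9, 36.7 and 31.6 CPM at D8 (log2 difference 1.69 ± 0.34, adjusted p = 0.000494).

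Lysosomal genes rose in 10 of 20 cases, with 1 lower in this fit and 0 to 2 over the alternatives. The cathepsin proteases were among them. Ctsb gave 897, 973 and 958 CPM at D5 and 2256, 2012 and 1495 CPM at D8 (log2 difference 1.03 ± 0.10, adjusted p = 1.61e-07), Ctsd 1280.0, 1253 and 1185 CPM at D5 and 2187, 1958 and 1778 CPM at D8 (log2 difference 0.67 ± 0.07, adjusted p = 2.67e-07) and Ctsl 426, 441 and 432 CPM at D5 and 814, 799.8 and 698 CPM at D8 (log2 difference 0.83 ± 0.06, adjusted p = 7.91e-09). Groups were separate for these 3 genes, and D8 replicate 1 was the highest D8 library for 18 of the 20 lysosomal genes.

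The 3 D8 libraries differed in their distance from D5, in an order that depended on the genes. For the 2551 genes called 2-fold higher, the median log2 distance above the D5 mean was 2.14, 2.26 and 2.61 in replicates 1, 2 and 3. These genes were chosen by the same values. By summed level, replicate 3 lay furthest from D5 for naive genes (log2 ratios 2.06, 2.36 and 2.92). Replicate 1 lay furthest for lysosomal (0.64, 0.49 and 0.21) and cell cycle genes (-0.89, -0.74 and -0.37). Replicate 3 was the highest D8 library for 58.5% of the 2551 genes called 2-fold higher, against 38.7% of all genes tested. Replicate 3 also led for germline genes, in 14 of 15, beside the naive and cell cycle genes given above. Replicate 1 led for 12 of 19 trophoblast genes, 13 of 15 epithelial genes and 18 of 20 cholesterol synthesis genes, compared with 34.2% of all genes tested. The median log2 distance of the 616 genes called 2-fold lower was -1.38, -1.35 and -1.39, a range narrower than that of the higher genes.

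**Figure D5:**
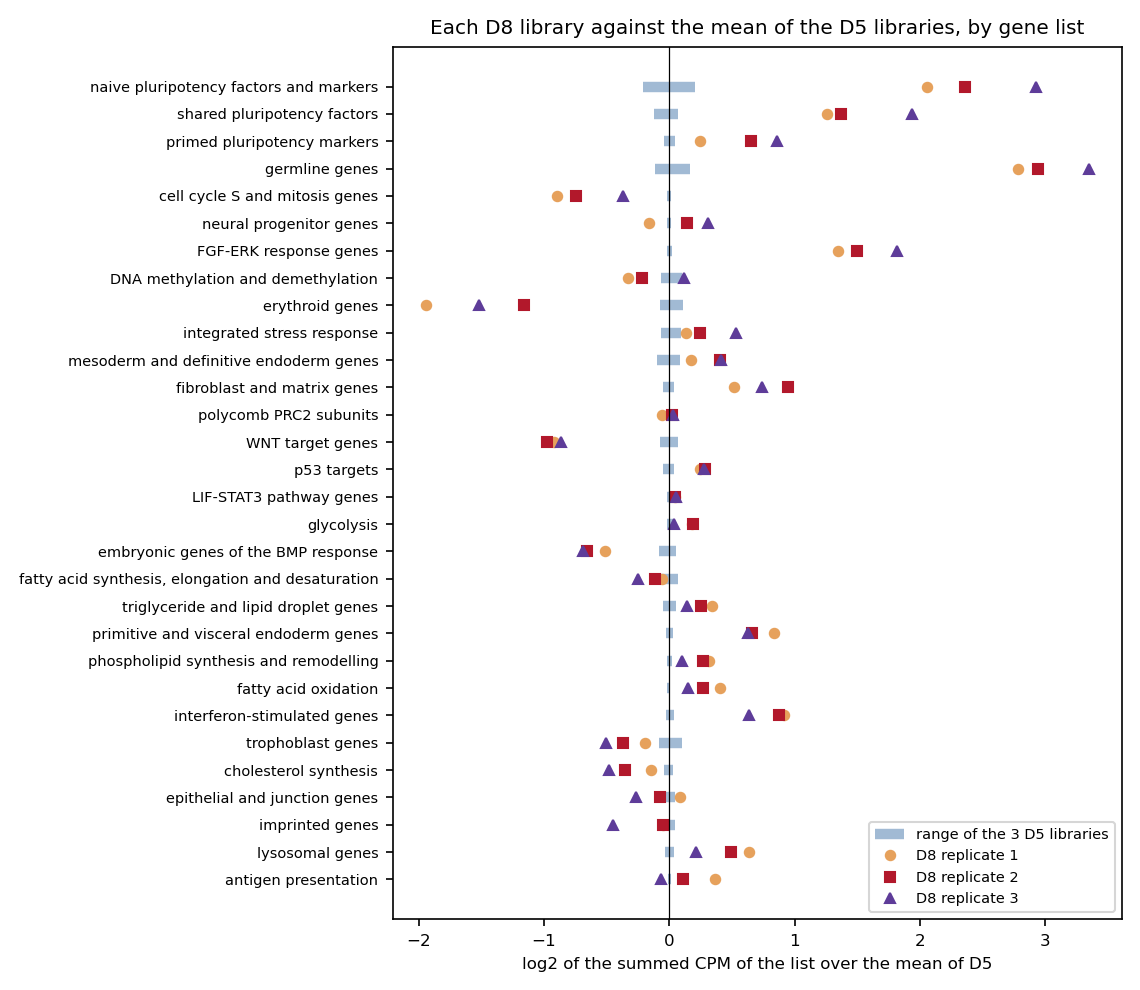
For 30 gene lists, the log2 ratio of the summed CPM of each D8 library (circle, square and triangle for replicates 1, 2 and 3) to the mean of the D5 libraries, with the range of the 3 D5 libraries as a blue bar. For naive genes the D8 libraries stand at 2.06, 2.36 and 2.92, for cell cycle genes at -0.89, -0.74 and -0.37, and for trophoblast genes at -0.19, -0.37 and -0.51.

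The direction of the step was set beside the difference between the reference states, ESC against EpiSC, which uses none of the 6 libraries. Of the 4397 genes higher at D8, 2312 (52.6%) were also higher in ESC, which is 42.2% of the genes higher in ESC, and 31.2% of all genes tested were higher there. A further 1113 (25.3%) were lower in ESC, where 36.1% of all genes tested were lower. Of the 3868 genes lower at D8, 1931 (49.9%) were also lower in ESC, 30.5% of the genes lower there, and 997 (25.8%) were higher. The first change of the conversion, D3 against EpiSC, also shares no library with the step. Of the genes lower at D8, 1636 (42.3%) had been higher at D3 than in EpiSC, 27.4% of the genes higher there, against 34.1% of all genes tested, and 1279 (33.1%) had been lower, against 30.2%. Of the genes higher at D8, 1444 (32.8%) had been higher at D3 and 1513 (34.4%) lower. Phf19, Gata2 and Krt8, chosen after their values were seen, took different courses. Phf19 was low in EpiSC, high at D3 and D5 and low at D8. Gata2 averaged 3.08 ± 0.579 CPM in EpiSC, 368 ± 21.9 CPM at D3, 463 ± 40.1 CPM at D8 and 1.69 ± 0.4 CPM in rES. Its D5 libraries, at 935, 824 and 811 CPM, lay above all of these means. Krt8 averaged 122 ± 14 CPM in EpiSC, 1360.3 ± 141 CPM at D3, 2174 ± 311 CPM at D8 and 7.86 ± 0.462 CPM in rES. Its D5 libraries, at 2523, 2459 and 2373 CPM, overlapped those of D8.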

How the data were processed

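The authors deposited a table of expected counts for the 18 libraries, with genes named by symbol and no scaling between libraries. Per the labels' protocols, ribosomal RNA was removed with RNase H and the libraries were read as paired 150-base reads. Per the submitters' processing notes, bcl2fastq, Trim Galore and HISAT2 were used with mm10. The sources used here name neither the counting program nor its annotation and strand setting, so overlapping and near-identical genes may be miscounted. Low counts bunch at multiples of 4, so the floor was put at 12 counts per library, and counts divided by 4 were an alternative. No counting intervals were computed.

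The fit took all 18 libraries, with R 4.3.3, edgeR 4.0.16 and limma 3.58.1 (filterByExpr, TMM, quasi-likelihood F test, Benjamini-Hochberg over 17545 of 25239 symbols, threshold 0.05). Approximate standard errors are the size of the log2 difference over the root of F. The alternatives were DESeq2 1.42.0, RLE scaling, other filters, D5 and D8 alone, a replicate block, and leaving out each replicate. Lists are described by counts and medians, with no test of the list. Named were 21 key genes, the 10 largest rises and 10 largest falls among called genes whose groups did not overlap and reached 10 CPM, up to 4 called members of each of 31 lists that reached 5 CPM, and members that went against their list. The ranking of rises and falls skipped symbols that begin with Gm and a digit, end in Rik or are clone names. The members and lists were chosen with earlier results of these data known, and a few further list members were named after their values were seen. On simulated counts for D8 against D5, the fit found 57.9% of the genes changed 1.5-fold, 85.5% at 2-fold and 98.7% at 4-fold, and 5.71% of its calls were false. The simulation started from counts divided by 4 and gave all groups the same mean. Of 14833 genes, only 57, 69 and 74 were changed at these sizes, in D8 alone. The real data differ in each of these points, so the rates need not hold for the main fit. Same-numbered D5 and D8 libraries did not deviate together (correlations -0.0384, -0.00535 and -0.0309), so replicates were taken as unpaired.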

Additional observations from a re-analysis of the deposited data

How the results depend on the processing

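No alternative moved the count of called genes by over 1.5 times. It ranged from 7328 to 8657 against 8265, and 85.4% to 96.5% of the calls were kept. With the replicate number as a block 7971 genes were called, and same-numbered libraries showed no pairing. RLE scaling raised the share of higher calls from 53.2% to 59.2% and the median of all genes from 0.05 to 0.11. The Krt7 difference, near 0, changed sign with RLE scaling (0.0478), the stricter filter (0.00103) and DESeq2 (0.0479), and ranged from -0.136 to 0.0995 without a replicate. Leaving out a replicate moved Cdx2 from -0.349 to 0.191, Hba-a2 from -1.99 to 2.14 and the median of the integrated stress response list from -0.0140 to 0.132. The causes were not tested. Nothing tells biological from technical replicates, and 3 libraries a group limit the small differences that can be called.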

Other observations

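Gene families taken by symbol, chosen after their values were seen, moved with the step. Some Rhox, Mage, cathepsin and proteasome genes are also members of the lists above, so their counts are not separate observations. Of 22 Rhox homeobox genes tested 13 were called higher and 4 lower, and of 21 Mage genes, X-linked cancer-testis genes for the most part, 14 were higher and 1 lower. Of 10 Prame genes 8 were higher and none lower, and of 8 Serpinb9 genes, inhibitors of granzyme-like proteases, 6 were higher and none lower. Many members of these families are near-identical, so their counts may be shared. Of 16 cathepsins 11 were higher and none lower, and of 17 Wnt ligands 1 was higher and 8 lower. Lower calls exceeded higher ones among NADH dehydrogenase subunits (14 against 2 of 39) and proteasome subunits (18 against 3 of 40), with median log2 differences of -0.25 and -0.18. Over all genes tested 25.1% were higher and 22% lower.

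By chromosome, 172 of 696 X-linked genes tested were called 2-fold higher (24.7%), against 11.6% to 17.9% on the autosomes. On the Y chromosome 8 of 12 genes were 2-fold higher (66.7%) and none lower. By annotation class, 73 of 316 lincRNA genes were 2-fold higher (23.1%) and 6 were 2-fold lower, against 14.4% 2-fold higher among 16022 protein-coding genes. These are counts only and were not tested.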
